A study of Mus musculus with 2 samples.

Results

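Protein-coding genes of mouse chromosome 7 whose symbol is Zfp followed by a number numbered 93, of 21896 protein-coding genes in the annotation, and their methylated DNA was measured in testis. The rule for the members used symbol and position alone and no measured value, but it was chosen with earlier results of these data known. A strand was known for 85 of them, which allowed the promoter to be told from the 3′ end. The study held 2 libraries of testis DNA from C57BL/6 mice, captured on the methyl-CpG binding protein MBD2. One came from a wildtype testis. The other carried the genotype label Kaiso KO, meaning loss of Kaiso, the protein of the Zbtb33 gene that binds methylated DNA, and its donor was labelled as a sterile male of generation 3. The deleted part of the allele, the age and whether animals were pooled are not given in the sources used here. The description of the knockout sample also calls its testis wildtype, so each knockout value rests on the genotype label.

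Zinc finger proteins of the C2H2 class read DNA through a row of finger modules, each folded around a zinc ion. Many of the chromosome 7 members belong to the KRAB class, whose KRAB domain recruits the co-repressor Trim28, and through it the histone methyltransferase Setdb1, to retrotransposons and other repeats. Genes of this class lie in tandem clusters that arose by duplication, and the fingers are typically encoded together in the last exon, near the 3′ end. The promoters of such genes often lie in CpG islands, which are usually free of methylation. The list is not uniform, since Zfp36 encodes tristetraprolin, an RNA-binding protein with fingers of another class.

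Sequencing depth was 87710791 reads in wildtype and 98549116 in the knockout. Read counts were deposited for 2537435 windows of 100 bp, all with a deposited p-value below 0.05, and 1432879 of them (56.5%) were higher in the knockout library. A window that is not listed was therefore not shown to be unchanged, and listing by p favours windows with ratios far from 1. No difference has a replicate check, as each genotype has 1 library, and the intervals below cover counting error only. Counts of regions past a threshold are descriptions and not tests. The targeted gene Zbtb33 had 303 wildtype and 83 knockout counts over its span and 1 kb on each side (log2 ratio of knockout over wildtype -2.04, 95% interval -2.81 to -1.32). It had no listed window within 1 kb of either gene end.

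Of the promoter sequences of 300 bases given by RefSeq for 85 members, 95 in all on GRCm38.p6, only 7 overlapped a listed window. Those of Zfp977, Zfp936 and Zfp180 held 3 or more listed windows and are shown with that of Zfp607b, which has many CpGs and no listed window. Each runs from 250 bases before to 50 bases after a transcript start, and capitals mark the CpGs.
Zfp977 (chr7:42592496-42592795, minus strand): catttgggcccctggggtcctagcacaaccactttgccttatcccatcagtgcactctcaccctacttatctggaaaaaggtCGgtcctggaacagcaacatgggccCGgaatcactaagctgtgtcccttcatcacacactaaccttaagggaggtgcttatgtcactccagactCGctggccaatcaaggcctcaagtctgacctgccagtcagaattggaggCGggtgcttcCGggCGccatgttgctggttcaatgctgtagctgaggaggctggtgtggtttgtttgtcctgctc
Zfp936 (chr7:43177340-43177639, plus strand): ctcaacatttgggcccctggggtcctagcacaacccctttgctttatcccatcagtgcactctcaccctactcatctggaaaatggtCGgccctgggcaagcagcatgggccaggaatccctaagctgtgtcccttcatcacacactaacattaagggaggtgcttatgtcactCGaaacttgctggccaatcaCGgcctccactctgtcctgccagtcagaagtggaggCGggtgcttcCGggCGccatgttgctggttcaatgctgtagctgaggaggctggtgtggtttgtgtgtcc
Zfp180 (chr7:24081647-24081946, plus strand): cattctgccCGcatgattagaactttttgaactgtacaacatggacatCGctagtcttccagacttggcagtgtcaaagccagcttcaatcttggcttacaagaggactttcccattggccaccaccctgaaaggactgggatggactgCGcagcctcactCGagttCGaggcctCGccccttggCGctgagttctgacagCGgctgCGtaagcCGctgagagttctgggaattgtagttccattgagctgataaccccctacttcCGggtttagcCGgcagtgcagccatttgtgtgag
Zfp607b (chr7:27674411-27674710, plus strand): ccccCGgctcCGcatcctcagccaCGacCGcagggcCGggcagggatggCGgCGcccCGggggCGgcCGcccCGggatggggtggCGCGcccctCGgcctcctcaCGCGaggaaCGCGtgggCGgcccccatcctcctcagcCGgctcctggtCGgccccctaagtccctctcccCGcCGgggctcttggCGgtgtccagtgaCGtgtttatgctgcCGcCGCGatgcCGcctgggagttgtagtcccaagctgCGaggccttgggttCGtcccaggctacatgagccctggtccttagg
The Zfp977 and Zfp936 sequences hold 6 CpGs each, that of Zfp180 holds 12 and that of Zfp607b 31. Zfp977 and Zfp936 share 274 of 300 bases (91.3%), against a median of 53% over 3570 pairs of member promoters. Zfp976 shares 256 with Zfp977 and 257 with Zfp936, and the only other pair at 80% or more was Zfp747 with Zfp764 (265 bases). Reads may be shared between such copies, and the labels do not state how reads with several alignments were treated.

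Capture over the shown sequences was low in wildtype and higher in the knockout library, window by window. The 4 windows over the Zfp977 sequence had 11, 10, 8 and 6 wildtype counts and 59, 56, 47 and 39 knockout counts. Those over the Zfp936 sequence had 7, 10, 14 and 16 wildtype counts and 73, 97, 125 and 133 knockout counts (log2 of the summed ratio 3.02, 2.15 to 4.03). Over the Zfp180 sequence 3 windows had 1, 8 and 18 wildtype counts against 9, 25 and 47. In each of these 11 windows the knockout count was the higher one. Windows with so few wildtype counts can hardly be listed otherwise, so this direction is largely set by the listing. Among listed promoter windows of all protein-coding genes 80.3% were higher. The shown Zfp936 start lies 63.4 kb inside the annotated gene span, whereas those of Zfp977 and Zfp607b coincide with the gene start.

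Promoters of the zinc finger genes, taken as 1 kb on each side of the annotated gene start, were captured more in the knockout library in most members that could be read. A promoter or gene end was called higher or lower with at least 20 fragments over both libraries (window counts divided by 4), a 2-fold or larger difference in the ratio, and an interval that did not include 1. Of 85 promoters 42 had no listed window, 17 were below the minimum and 26 could be called. Among these 26, 20 were higher (76.9%), 1 was lower and 5 were neither. Over all protein-coding genes 50.3% of 5763 promoters were higher and 14.1% lower. The median log2 ratio was 1.99 (order-statistic interval over the genes 1.11 to 2.77), against 1.08 over all protein-coding promoters. Zfp genes on other chromosomes had 41 of 60 promoters higher (68.3%) and a median of 2.10, so a high share was also seen in that family elsewhere. Other genes of chromosome 7 had 225 of 516 higher (43.6%) and a median of 0.80. Differences between these groups were not tested. With 2 kb on each side of the start the members' median was 1.08 with 25 of 46 promoters higher, against 0.58 and 32.8% over all genes. With 500 bp 11 of 14 were higher (49.0% over all genes), and without windows of 1 or 2 CpGs 10 of 14 (53.6%).

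**Figure D1:**
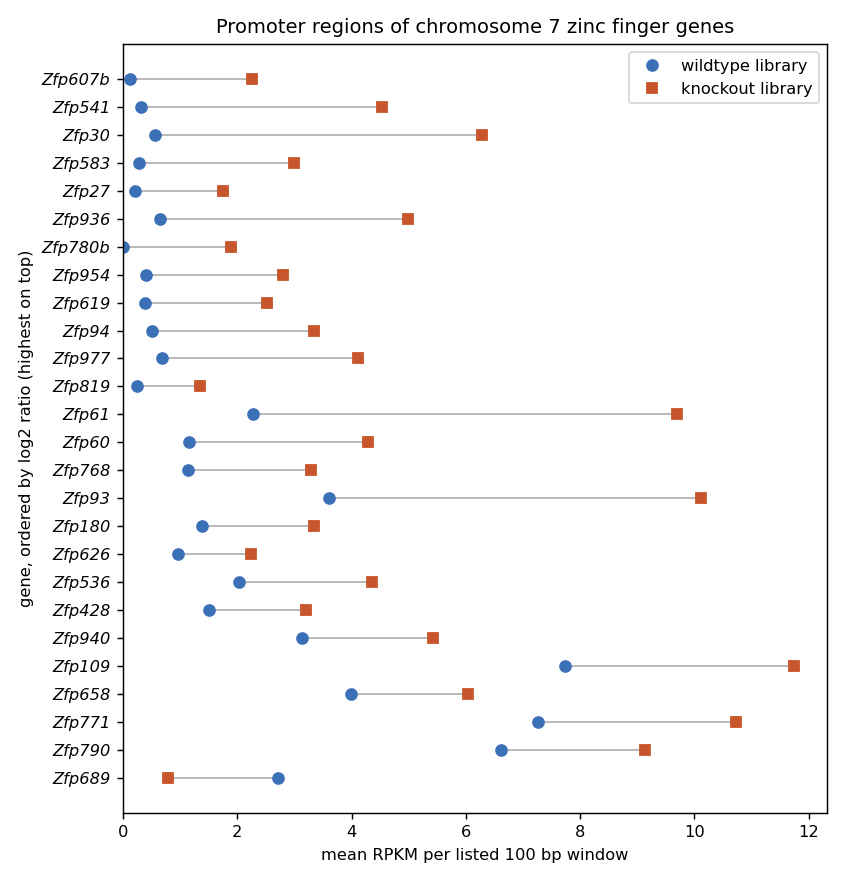
Mean RPKM per listed 100 bp window (horizontal axis) in the promoter region of each of the 26 genes that could be called, with 1 point for the wildtype and 1 for the knockout library. The knockout point lies to the right in 25 genes and to the left in Zfp689.

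The higher promoters had a median of 0.608 wildtype and 3.32 knockout RPKM per listed window, where RPKM is the deposited count scaled by window length and library reads. The 5 that were neither had 6.61 and 9.13. The call itself uses the wildtype count, so a low wildtype level among the higher promoters follows from the call. A region with few wildtype counts is listed and reaches 20 fragments mainly through knockout counts, so it could hardly be called lower. Among promoters with a wildtype count the highest ratio was that of Zfp607b, with 7 wildtype and 134 knockout counts in 6 windows (log2 4.09, 2.02 to 7.51). All 6 windows lay downstream of the gene start, and none overlapped the CpG-dense sequence shown above. Zfp541, which encodes a germ cell chromatin protein needed for meiotic prophase, had 37 and 580 counts in 13 windows with 7.46 CpGs per window (13.9-fold, log2 3.80, 2.85 to 4.94). Its last 6 windows, centred 76 to 576 bp past the gene start, held no wildtype count and 20 to 78 knockout counts. That region is the annotated gene start, and a RefSeq start 10.1 kb further in had 29 and 14 counts, which is below the minimum.

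Zfp780b had 0 wildtype counts and 93 knockout counts in 5 windows, upstream of the gene start. With a floor of 3 fragments (12 counts) put in place of the 0, its ratio was 6.90-fold. The interval started lower, at log2 2.37, and had no upper bound. Zfp30 had 20 and 248 counts in 4 windows upstream of the start (log2 3.46, 2.16 to 5.14). Zfp583 had 17 and 206 (10.8-fold), and Zfp936, at its annotated gene start, had 51 and 442 (7.71-fold). These genes were named by the interval bound farthest from 0, so a difference beyond counting error follows from the choice. Their wildtype means stayed at or below 0.646 RPKM, a low level that the call favours.

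Zfp977 had 60 wildtype and 405 knockout counts in 10 windows (6.01-fold, log2 2.59, 1.80 to 3.48). Zfp61 stood out by its level, with 199 and 956 counts and means of 2.27 and 9.70 RPKM (4.28-fold). Zfp94 had 31 and 231 counts (6.63-fold), Zfp619 20 and 149 (6.63-fold), Zfp954 18 and 138 (6.82-fold), and Zfp27 9 and 86 (8.51-fold). The remaining 8 higher promoters lay between log2 1.08 for Zfp428 and 2.46 for Zfp819.

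Zfp689 was the only called promoter below 1, with 95 wildtype and 31 knockout counts in 4 windows (log2 -1.78, -3.17 to -0.57). Its windows averaged 1.75 CpGs. The promoters that were neither, of Zfp109, Zfp658, Zfp771, Zfp790 and Zfp940, had log2 ratios of 0.47 to 0.79.
A further 4 promoters had 0 wildtype counts but lay below the minimum, so none was called. These were Zfp715 with 53 knockout counts, Zfp260 with 55, Zfp110 with 20, and Zfp296, a gene known from pluripotent cells, with 49.

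The annotated gene start lay within 1 kb of a RefSeq transcript start in 68 members and farther away in 17. Among the former 12 of 15 callable promoters were higher and 1 was lower, and the median log2 ratio was 2.59. Among the latter 8 of 11 were higher, with a median of 1.22. Zfp541, Zfp583, Zfp61, Zfp93, Zfp428, Zfp626, Zfp536 and Zfp936 are the higher promoters of the second kind. Apart from Zfp541 and Zfp936, these had no listed window around the first RefSeq start.

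The 3′ ends, 1 kb on each side of the gene end, were captured in both libraries and were called in both directions. Of 85 regions 19 had no listed window, 8 were below the minimum and 58 could be called. Of those 10 were higher (17.2%), 15 lower (25.9%) and 33 neither, against 13.5% higher and 18.1% lower among 9790 3′ ends of protein-coding genes. The median log2 ratio was 0.45, close to the 0.43 of all 3′ ends, and it turned to -0.21 with the median of windows with 5 or more CpGs set to 0. Under that scaling 6 were higher and 18 lower. The median of the genes' mean wildtype level was 5.01 RPKM per listed window at 3′ ends and 1.05 at promoters, and the knockout medians were 7.35 and 3.73.

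**Figure D2:**
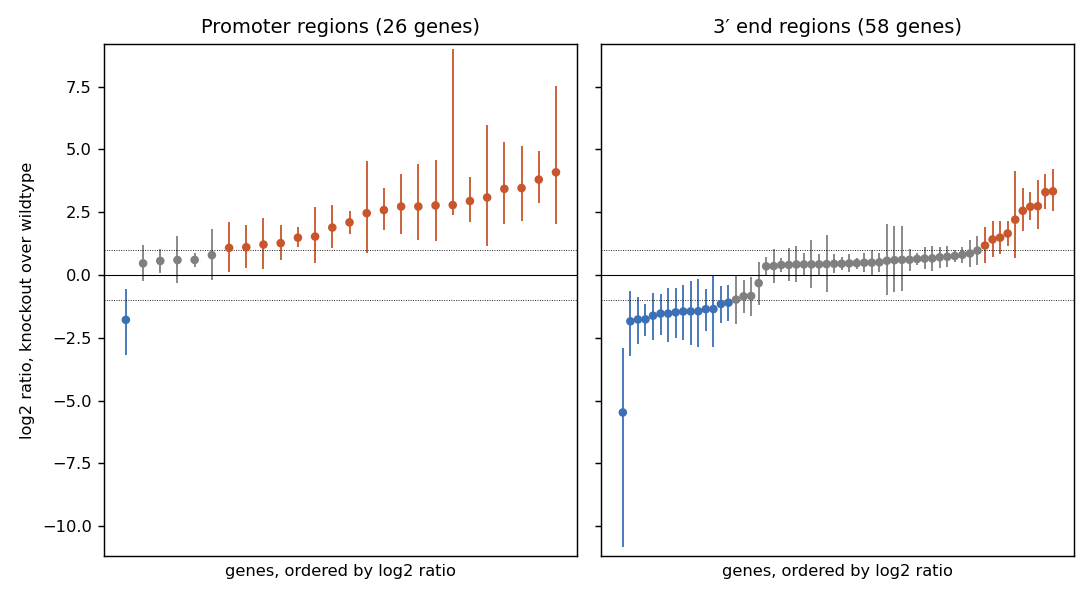
Log2 ratio of knockout over wildtype (vertical axis) of each callable promoter and 3′ end region, ordered by value, with 95% counting intervals and dotted lines at the 2-fold limits. Intervals are drawn to the edge of the axis where they have no upper bound, and 20 of 26 promoters but 10 of 58 3′ ends are marked as higher.

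The lower 3′ ends held few CpGs. Their median was 1.5 CpGs per listed window, against 3.12 in the higher ones, and without windows of 1 or 2 CpGs only 1 lower 3′ end remained callable as such. Zfp444 had the lowest ratio, with 158 wildtype and 4 knockout counts in 6 windows (44.4-fold lower, log2 -5.47, -10.81 to -2.91). Its last 4 listed windows, centred 554 to 254 bp before the gene end, held 37, 35, 28 and 17 wildtype counts and no knockout count. In the 3 kb before the gene end, however, its log2 ratio was 0.25. Zfp260 had 363 and 120 counts (log2 -1.77), and Zfp143, a transcription factor that acts at promoters of small nuclear RNA genes among others, had 173 and 57 (-1.77). The others named by the same bound were Zfp629 (-1.84), Zfp689 (-1.62), Zfp141 (-1.53), Zfp719 (-1.48) and Zfp790 (-1.36). Zfp790 and Zfp940 end 319 bp apart, so their 3′ end regions share windows.

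The higher 3′ ends had a median of 1.13 wildtype and 6.60 knockout RPKM, a low wildtype level that the call again favours. Zfp787 had 59 wildtype and 668 knockout counts (10.1-fold, log2 3.33, 2.56 to 4.21) and Zfp579 had 81 and 896 (9.85-fold, 3.30, 2.64 to 4.03). Zfp580 followed with 45 and 338 counts (6.69-fold). These genes had 5.10, 5.23 and 5.46 CpGs per listed window there. Zfp109 had 125 and 925 counts (6.59-fold), and Zfp420 had 57 and 377 (5.89-fold). Zfp30 (3.15-fold), Zfp27 (2.81-fold) and Zfp628 (2.67-fold) were higher as well. Zfp78 had 0 wildtype and 22 knockout counts, below the minimum.

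Within a gene the promoter had the larger ratio in 17 of the 19 members of at least 2 kb in which both ends could be called (89.5%). Over all protein-coding genes this held in 69.3% of 3204, over Zfp genes of other chromosomes in 23 of 33 and over other genes of chromosome 7 in 187 of 281. The median difference, promoter minus 3′ end on the log2 scale, was 1.56 (0.73 to 2.06), against 0.92 over all genes, 1.24 in the other Zfp genes and 0.83 on the rest of chromosome 7. This difference does not depend on how the 2 libraries are scaled to each other as a whole. It was smaller with regions of 500 bp (0.81) or 2 kb (0.88), without windows of 1 or 2 CpGs (0.81), with the 3 kb before the gene end as the 3′ region (0.96) and with a p limit of 0.01 (1.03). Over all genes the same settings gave 0.52, 0.29, 0.55, 0.72 and 1.09, so the members' median lay below that of all genes with the p limit of 0.01. In single genes the 95% counting interval of the difference did not include 0 in 12 cases, 11 with the promoter above and 1 with the 3′ end above. This count was made for the members only. Without a share over all genes it cannot be read as particular to them.

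**Figure D3:**
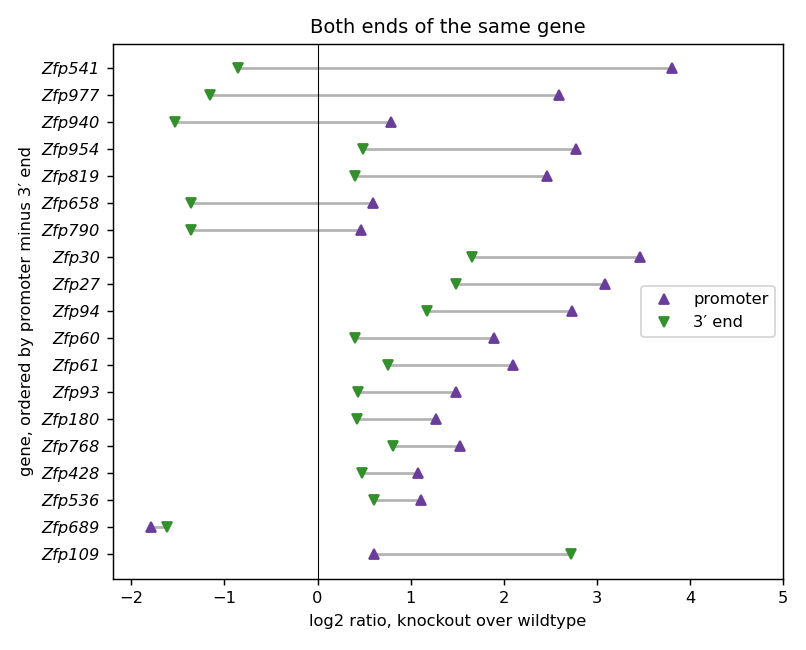
Log2 ratio of knockout over wildtype (horizontal axis) at the promoter and the 3′ end of the 19 genes in which both could be called, 1 line per gene. The promoter lies to the right in 17 genes, and Zfp109 and Zfp689 are the exceptions.

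Zfp541 had the largest difference, 4.65 ± 0.585 (counting SE), with 3.80 at the promoter and -0.85 at the 3′ end. Zfp977 followed with 3.74 ± 0.535, being higher at the promoter and lower at the 3′ end, where it had 196 wildtype and 99 knockout counts. Zfp940 (2.33 ± 0.697), Zfp954 (2.28 ± 0.748), Zfp819 (2.06 ± 0.814) and Zfp658 (1.95 ± 0.776) came next. In Zfp940 and Zfp658 the promoter was neither higher nor lower (0.79 and 0.60) and the 3′ end was lower (-1.53 and -1.35). Zfp954 and Zfp819 had 3′ ends of 0.49 and 0.40.

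Zfp109 went the other way, with 746 wildtype and 1273 knockout counts at its promoter (log2 0.60) and 2.72 at the 3′ end, a difference of -2.12 ± 0.305. Zfp689 was lower at both ends, and its difference of -0.17 ± 0.739 lay within counting error. Zfp536 (0.50 ± 0.460) and Zfp428 (0.61 ± 0.485) did too. Of the 20 genes with a higher promoter, 3 also had a higher 3′ end, 1 a lower one and 10 neither, while in 6 the 3′ end could not be called.

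Distance from the gene start followed the same pattern. Summed over members in 200 bp bins, the log2 ratio was 1.49 between 600 and 400 bp upstream (28 windows) and 2.58 between 400 and 600 bp downstream (20 windows, 126 wildtype and 848 knockout counts). It was 1.01 between 1000 and 1200 bp and 0.55 between 2400 and 2600 bp. Mean wildtype RPKM went over the same downstream stretch from 0.718 to 4.81, and knockout RPKM from 4.30 to 7.04. In the last 3 kb of the genes the ratio of a bin stayed between 0.47 and 0.79. Bins under 20 windows, which include those directly around the start, are drawn as open points and carry no statement here.

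**Figure D4:**
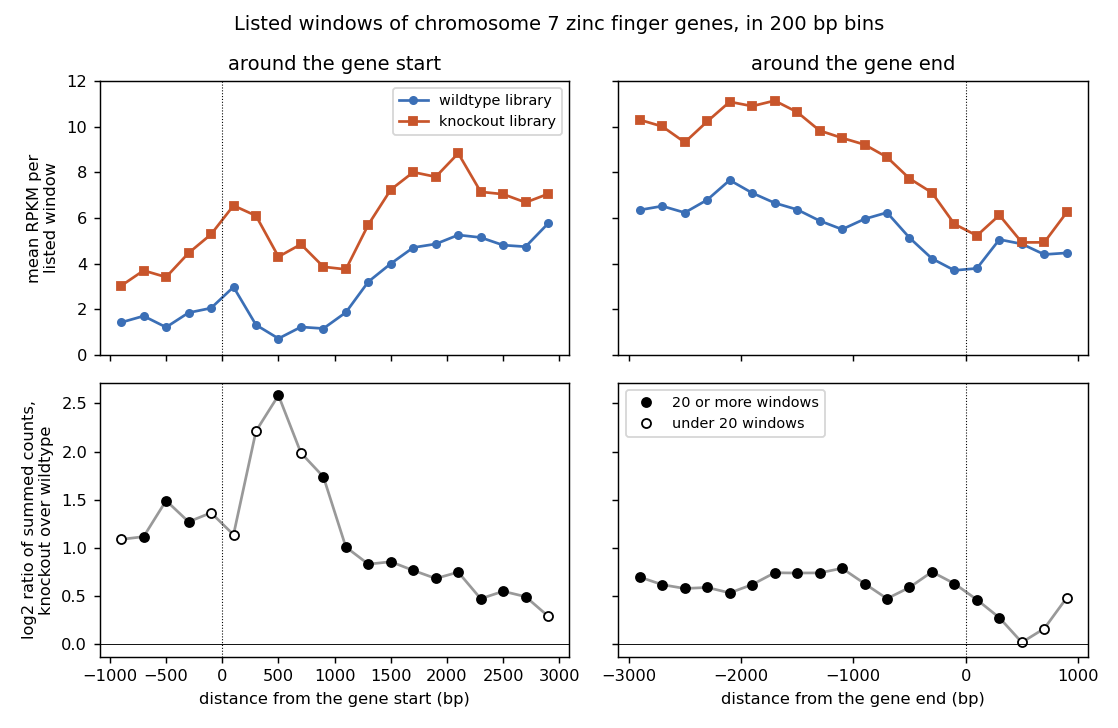
Mean RPKM per listed window (upper panels) and log2 ratio of summed counts (lower panels) in 200 bp bins against distance from the gene start (left) and gene end (right), over members with a strand. Negative distances lie upstream, and the ratio peaks at 2.58 in the bin 400 to 600 bp past the gene start.

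CpG content was set beside position, because windows with more CpGs were more often higher in the whole table. Among promoter windows of members 186 of 195 were higher (95.4%), and the median window had 5 wildtype and 31 knockout counts, against 223 of 318 (70.1%) at 3′ ends and 1839 of 2796 (65.8%) in gene bodies. In windows with 1 CpG the shares were 91.7% of 48 promoter windows, 45.8% of 107 3′ end windows and 43.5% of 929 body windows. The median wildtype count of these windows was 5 at promoters, 28 at 3′ ends and 33 in bodies. A window with few wildtype counts can hardly be listed unless its knockout count is higher. The promoter share is therefore partly set by the listing, and the 3 classes are not matched for wildtype level. Promoter windows with 1 CpG of all protein-coding genes were higher in 65.8%, and all listed windows with 1 CpG in 37.8%. With 5 or more CpGs the shares were 100% of 32, 100% of 42 and 99.1% of 351, against 98.9% in the whole table. Nearly all windows with 5 or more CpGs were higher anywhere, so that class could not show a difference in direction. Its pooled log2 ratio was 1.59 at member promoters and 1.07 at 3′ ends, with median wildtype counts of 7 and 28. Over all protein-coding genes the same class gave 1.43 and 0.83, with median wildtype counts of 5 and 62. Adjacent windows share fragments, so windows are not independent, and the comparison has no test.

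**Figure D5:**
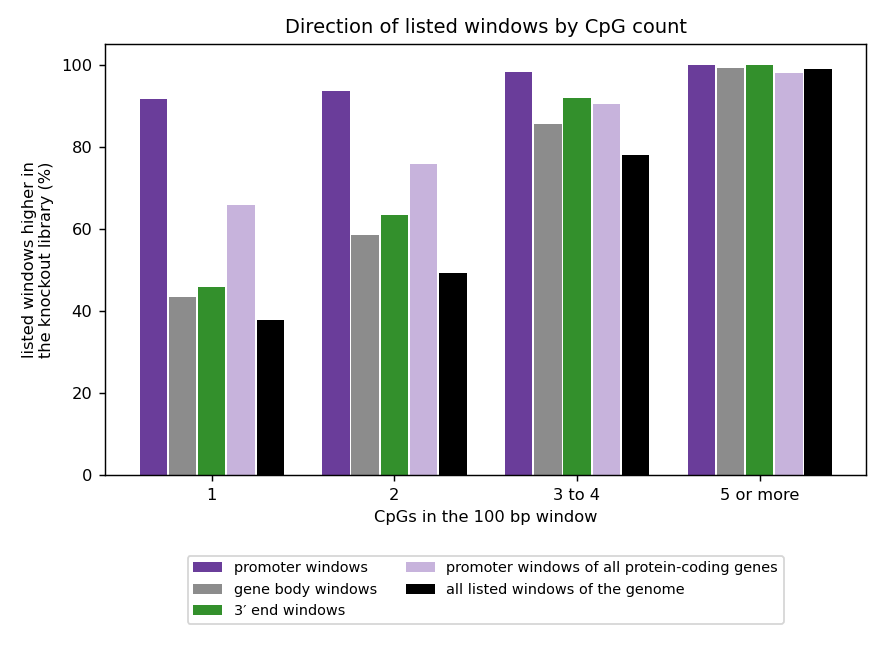
Percentage of windows with the higher value in the knockout (vertical axis) by the number of CpGs in the 100 bp window, for promoter, gene body and 3′ end windows of the chromosome 7 zinc finger genes and for the 2 background sets. With 1 CpG the promoter bar stands at 91.7% and the 3′ end bar at 45.8%, while all bars lie near 100% with 5 or more CpGs.

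The relative methylation score of the authors, whose scale is not stated, showed the same contrast. Its median over promoter windows was 0.0225 in wildtype and 0.102 in the knockout. At 3′ ends it was 0.194 and 0.184, and in gene bodies 0.194 and 0.180. Over all protein-coding genes it was 0.0415 and 0.110 in promoter windows and 0.1825 and 0.174 in 3′ end windows. The contrast was thus also present in genes at large. Of the promoter windows 32 (16.4%) held no wildtype count and 0 held no knockout count, whereas at 3′ ends 6 held no wildtype count and 5 no knockout count. Among 39687 promoter windows of all protein-coding genes 10.9% held no wildtype count and 281 windows no knockout count.

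CpG content of the 300-base RefSeq promoters was similar in both kinds of members. Its median was 13 CpGs in the 20 members with a higher promoter and 15 in the other 65, against 13 over all 17491 protein-coding genes with a sequence. The Kaiso binding sequence TCCTGCNA, searched on both strands, was found in 3 of 85 member promoters (3.53%), in 1 of the 20 higher ones, in 26 of 244 of the other Zfp genes (10.7%) and in 4.67% of all. The sequence CGCG, which Kaiso binds when methylated and whose letters cannot overlap a TCCTGCNA match, was found in 51 of 85 (60.0%), in 9 of the 20 higher ones and in 49.4% of all. A match describes these 300 bases only. In 8 of the 20 higher members the transcript start lies over 1 kb from the annotated gene start. There the CpG count or match and the call come from different places. The TCCTGCNA match among the higher members is that of Zfp936, whose sequence lies 63.4 kb from the called region.

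Along the chromosome the 93 members fell into 17 groups separated by at least 1 Mb. The group from Zfp180 to Zfp526 had 5 of 6 callable promoters higher and none lower, that from Zfp607b to Zfp36 had 4 of 4, and that from Zfp788 to Zfp819 had 3 of 4. Zfp84 to Zfp146 had 2 of 4 higher, and Zfp553 to Zfp646 had 1 higher and 1 lower of 3. These counts are too small to be read against the shares of all genes. Among 3′ ends, those from Zfp628 to Zfp580 had 3 of 3 higher, while those from Zfp788 to Zfp819 had 5 of 8 lower and none higher, with a median of -1.25. The group from Zfp84 to Zfp146 had 3 higher and 3 lower among 12. Over all 3′ ends of protein-coding genes 13.5% were higher and 18.1% lower. The 3′ end counts of single groups are also too small to be read against these shares, and the groups named are only some of the 17.

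Over the whole gene and 1 kb on each side, all 93 members passed the minimum, and 10 were higher (10.8%), 1 lower (1.08%) and 82 neither. Over all protein-coding genes 9.64% were higher and 5.63% lower, so only the higher share was near the background. The median log2 ratio was 0.45, against 0.31 in all genes. Zfp579 had the highest ratio (157 wildtype and 1840 knockout counts, log2 3.38, 2.91 to 3.89) and Zfp976 was the lower one (195 and 71 counts, -1.63), both named here after their values were seen. Of the 8 members without a strand, Zfp114 was higher at 1 end (log2 1.70) and lower at the other (-1.45), and Zfp646 was lower at both (-1.43 and -1.42). Zfp575 (2.47), Zfp865 (1.55) and Zfp446 (1.01) were higher at 1 end. Zfp524, Zfp574 and Zfp568, whose protein silences a placental Igf2 promoter, were called at neither end.

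Genes that work with KRAB zinc finger proteins and other zinc finger genes of the chromosome were read in the same way. Of 24 silencing partners with a strand 6 promoters could be called, with 3 higher (Setdb1, Dnmt1 and Atf7ip) and 1 lower (Uhrf1), near the shares of 50.3% and 14.1% over all genes. Setdb1 had 0 wildtype and 93 knockout counts, a ratio of 6.90-fold against the floor of 12 counts, with an interval starting at log2 2.37. Dnmt1 had 184 and 471 (log2 1.19), Atf7ip 27 and 110 (1.86) and Uhrf1 72 and 25 (-1.69). At the 3′ end 0 of 13 were higher and 2 lower, Cbx5 (-4.29) and Dnmt3b (-1.54), beside 13.5% and 18.1% of all genes. Among zinc finger genes of chromosome 7 with other names, 1 of 4 callable promoters was higher, that of the imprinted gene Peg3 (93 and 754 counts, log2 2.85, 2.23 to 3.54). Of their 7 callable 3′ ends, Zbtb32 (1.45) and Zbtb45 (1.29) were higher and 3 were lower, among them Zscan2 (-3.02) and Zkscan2 (-1.11).

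A list of germline genes whose promoters are methylated in somatic cells moved with the promoters described here. All 23 of its promoters with a strand were higher, against 50.3% over all genes, and their median log2 ratio was 3.00. Their counts ranged from 32 to 271 in wildtype and from 420 to 1255 in the knockout library, with none at 0. The sum was 2293 wildtype and 18974 knockout counts, and Mov10l1 (4.79), Cyct (3.96), Dazl (3.66) and Brdt (3.50) were the highest by bound. At their 3′ ends 1 of 11 was higher and 2 were lower, beside 13.5% and 18.1% of all 3′ ends. In DNA from a whole testis a change in the share of somatic cells and a change of methylation within a cell type cannot be told apart, and the part of either in the promoter values was not tested.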

How the data were processed

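DNA bound by the MBD2 domain was sequenced from 1 wildtype and 1 Kaiso knockout testis. Bowtie2 2.2.6, edgeR and build mm10 are named in the submitters' processing notes. The deposited count is a whole number of reads per 100 bp window, and the RPKM the authors gave scales it by window length and library reads. The relative methylation score and the log2 fold change were deposited by the authors, the latter as wildtype over knockout. The deposited p-value was below 0.05 in every window. Another 10 columns of per-sample values were not used. Read extension and duplicate handling are not given in the sources used here.

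Ratios are knockout over wildtype, scaled by library reads, which were recovered from counts and RPKM. Summed window counts were divided by 4 to approximate fragments, as a read falls in several windows. The 95% intervals are Clopper-Pearson (exact), from the binomial share of knockout fragments, and PCR copies are not independent molecules. The floor for a library at 0 was 3 fragments. A median's interval is the order-statistic interval over genes. Gene spans came from the RefSeq table of GRCm38.p6, the assembly of mm10, and the strand of 85 members from its promoter table. For 8 members without strand both ends were read separately. Proteins and exons were not analysed here, so the planned split by KRAB domain and finger number was not made. Calls were tried on data simulated from the same binomial model as the intervals. The simulation had no listing by p, no PCR copies and no spread between animals, so it could not show how calls behave with these. Python 3.11.15, SciPy 1.17.1, pandas 2.3.3 and edgeR 4.0.16 (for TMM) were used.

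The members and lists were chosen with earlier results of these data known. Genes were named by a rule: up to 12 promoters and 8 3′ ends per direction by the interval bound farthest from 0, the 6 largest and 4 smallest differences between ends, members at 0 in 1 library, and up to 4 genes of each list. Alternatives changed the scaling, region width, minimum, fold, divisor, p and CpG limits and the gene start.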

Additional observations from a re-analysis of the deposited data

How the results depend on the processing

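With 1 library per genotype nothing separates genotype from animal, library or depth, and a window outside the deposited list has no value here. In the listed windows 17 promoters and 8 3′ ends held fewer than 20 fragments, where no call was made whatever the ratio. How far depth or the listing by p set this was not tested. No paired analysis was possible because each group has 1 library. Over 19 alternatives, 649 of 702 values of single genes were classed as unchanged. For a promoter or 3′ end this meant a call in the same direction. For a difference between ends it meant the same sign and a move of at most 1 on the log2 scale. Whole-library scalings and the 1.5-fold limit cannot alter such a difference, and values that could not be computed are not among the 702. The promoter median stayed above 0 in all 19. Most pairs had the promoter above in all 19 as well, but the whole-library scalings and the 1.5-fold limit cannot alter that count. The cause of the changes below was not tested, except that narrower regions, stricter limits and fewer windows leave less to call.

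Setting the median of windows with 5 or more CpGs to 0 turned the 3′ end median from 0.45 to -0.21 and left 6 higher 3′ ends. That median was 0.18 with autosomal window counts as scale, 0.13 with scaling by CpG class, 0.28 with TMM, 0.62 with windows of p below 0.01 and 0.63 without windows of 1 or 2 CpGs. These scalings moved the promoter median of all genes by -0.66, -0.27, -0.33 and -0.17 (5 or more CpGs, autosomal, class and TMM), and the authors' fold change moved it by 0.13. A 1.5-fold limit gave 20 higher 3′ ends. Lower 3′ ends numbered 6 in the 3 kb before the gene end, 9 with p below 0.01 and 1 without windows of 1 or 2 CpGs. Promoters of 2 kb on each side had a median of 1.08, 3 lower promoters and 29 of 39 pairs with the promoter above. With 500 bp these were 11 higher and 0 lower of 14, and 5 of 6 pairs. Without windows of 1 or 2 CpGs there were 10 higher and 0 lower of 14 promoters and 6 of 7 pairs, and with p below 0.01 there were 10 of 12 pairs. Lower promoters numbered 2 with a divisor of 3, 2 with a minimum of 10 fragments and 0 with 40.

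Zfp607b at 500 bp kept 1 window with 0 wildtype and 13 knockout counts, and its value of -0.053 reflects the floor of 12 counts and not a lower knockout count. Single values that changed sign were the 3′ ends of Zfp629 at 2 kb (0.20) and of Zfp444 (0.25), Zfp689 (1.24) and Zfp790 (0.40) over the last 3 kb, and Zfp541 at the first RefSeq start (-1.22). The difference between ends changed sign at 2 kb in Zfp819 (-0.85) and Zfp658 (-0.062), and over the last 3 kb in Zfp658 (-0.066) and Zfp536 (-0.043). Promoters centred on the first RefSeq start, chosen after seeing the data, gave 14 higher and 1 lower of 17.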

Other observations

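Beyond the gene ends, adjacent listed windows ran in 1 direction over longer stretches inside the zinc finger genes. Runs of at least 10 adjacent windows numbered 46 higher ones in 36 genes and 4 lower ones in 2 genes. Runs were counted in the members only, so their number, direction and place have no background and cannot be called particular to these genes. Over the whole genome 78.0% of listed windows with 3 to 4 CpGs and 98.9% of those with 5 or more were higher. Of the 42 higher runs in genes with a strand, 18 had their centre within 3 kb of a member's gene end and 7 within 3 kb of a gene start. One run of 12 windows, at chr7:24302601-24303800, lies near the start of Zfp61 and the end of Zfp94 and is in both counts. Runs in Zfp579, Zfp768 and Zfp747 lie within 3 kb of both ends of their own gene and are also in both counts. The genes named here were chosen after their values were seen. Zfp865 held the longest run, 34 windows at chr7:5028801-5032200 with 443 wildtype and 2910 knockout counts (log2 2.55, 2.26 to 2.85) and 6.65 CpGs per window. Zfp30 had 26 windows at chr7:29792101-29794700 (236 and 1894 counts), centred 1.30 kb before the gene end. Zfp607a had 24 at chr7:27882401-27884800 (267 and 1735), and Zfp579 had 23 at chr7:4992601-4994900 (133 and 1756). Zfp536, which encodes a neural zinc finger protein, had 23 higher windows at chr7:37567801-37570100 (112 and 1370 counts) and 3 of the 4 long lower runs.

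Opposite runs lay close together in Zfp444. Its run of 14 higher windows at chr7:6189401-6190800 had 75 wildtype and 805 knockout counts (log2 3.26) and 4.93 CpGs per window. A run of 5 windows at chr7:6192401-6192900, in its 3′ end region, had 148 and 2 counts and 1.40 CpGs per window. Runs of at least 5 windows had a median of 2.92 CpGs per window when higher (162 runs) and 1.40 when lower (30 runs). Zfp28 had 7 lower windows at chr7:6390801-6391500 with 157 wildtype counts and none in the knockout library.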
